A study of Danio rerio with 3 samples.

Results

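The genes described are fabp7a, gpm6aa, snap25a and sncgb, 4 genes of radial glia and neurons that were chosen because their array signal was low in zebrafish embryos given an siRNA against PGRP-SC. They are 4 of the 8793 genes that the array annotation named singly, and 6 probe sets measured them. A probe set is a group of short oligonucleotides for 1 transcript, and its signal is its brightness after hybridisation. Gene fabp7a (Entrez gene 58128), gpm6aa (368223) and snap25a (30712) had 1 probe set each, and sncgb (553679) had 3. Because earlier values of these same arrays led to the choice, the members' own ratios are given as a description.

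RNA came from whole Danio rerio embryos 24 hours after fertilization, in pools of 400 per group, with 1 array per group. The uninjected embryos received nothing, the second group received a control siRNA, and the third received an siRNA against PGRP-SC, a peptidoglycan recognition protein. Both siRNAs went into zygotes at 300 ng per µl and 1 nL per embryo, and that the third group received an siRNA is stated in the design text, since its own label gives the target alone. Embryos of all parents were mixed before injection, and the labels name no mutant allele or transgene in any group. With 1 array per group no spread between embryo pools was measured, no p-value was computed, and the number of arrays limits the precision. No probe set carried a peptidoglycan recognition protein name, so the level of the target was not analysed here.

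Radial glia are the stem cells of the embryonic nervous system: they divide along the ventricle and give rise to neurons, which migrate outward, extend axons and build synapses. The protein of fabp7a, brain lipid binding protein, carries fatty acids in the cytoplasm of radial glia and is a widely used marker of these cells. Of the neuronal members, gpm6aa encodes an M6 membrane glycoprotein of growing neurites, snap25a a plasma membrane SNARE that fuses synaptic vesicles with the presynaptic membrane, and sncgb a gamma-synuclein, of a family of small proteins found at nerve terminals. Whole embryos contain many other tissues, and fewer cells of a type cannot be told apart from less RNA per cell in such samples.

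The radial glia gene fabp7a had a signal of 2013 in uninjected embryos, 817 in control siRNA embryos and 224 in PGRP-SC siRNA embryos. Each array was below the one before it in that order, so part of the difference lay between the 2 control groups. The signal with PGRP-SC siRNA was 3.64-fold lower than with control siRNA, a log2 ratio of -1.86, and 8.97-fold lower than in uninjected embryos, a log2 ratio of -3.16. Control siRNA embryos were themselves 2.46-fold below uninjected ones. Among the 500 probe sets nearest to it in control signal, 95% differed by less than 1.60-fold between the controls. The difference of fabp7a between the controls lay outside that range. The range is no measure for the comparisons with PGRP-SC siRNA. In those, 2.93% and 6.09% of all genes were at least 2-fold lower, beside 0.774% between the controls. Ranked from the lowest ratio, fabp7a was number 11 of 6514 genes against control siRNA and number 3 of 6565 against uninjected embryos.

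The neurite glycoprotein gene gpm6aa had signals of 1131, 848 and 248 in uninjected, control siRNA and PGRP-SC siRNA embryos. The controls lay near each other, at a ratio of 1.33, and the PGRP-SC siRNA array lay apart from both. Its signal was 3.42-fold lower with PGRP-SC siRNA than with control siRNA, a log2 ratio of -1.77, and 4.56-fold lower than without injection. At its brightness 95% of probe sets differed by less than 1.58-fold between the controls, a range that held its own 1.33 there. The gene ranked 16 from the lowest of 6514 against control siRNA.

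The SNARE gene snap25a had signals of 671, 503 and 205 in the same order. It was 1.33-fold lower with control siRNA than without injection, inside the 1.67-fold range that held 95% of probe sets of like brightness between the controls. With PGRP-SC siRNA it was 2.45-fold lower than with control siRNA, a log2 ratio of -1.30, and 3.28-fold lower than in uninjected embryos. It ranked 86 from the lowest of 6514 genes against control siRNA, farther from the end of the list than fabp7a and gpm6aa.

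The synuclein gene sncgb was the dimmest member, with signals of 304, 281 and 79.2 at its brightest probe set. The last of these lay under the signal floor of 102, a level under which 40% of all signals fell and where ratios are not read. The gene was therefore at least 2.76-fold lower with PGRP-SC siRNA than with control siRNA and at least 2.99-fold lower than in uninjected embryos, while the 2 controls differed by 1.08-fold. Its other probe sets did not show this order. One had 128 in uninjected, 61.7 in control siRNA and 105 in PGRP-SC siRNA embryos, and the other had 81.8, 9.20 and 34.1, under the floor in each array. In the first of these weaker probe sets the control siRNA signal alone lay under the floor, and the PGRP-SC siRNA signal was near it. The second gives no order, since all its signals lay under the floor. The call for sncgb thus rests on 1 of 3 probe sets.

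**Figure D1:**
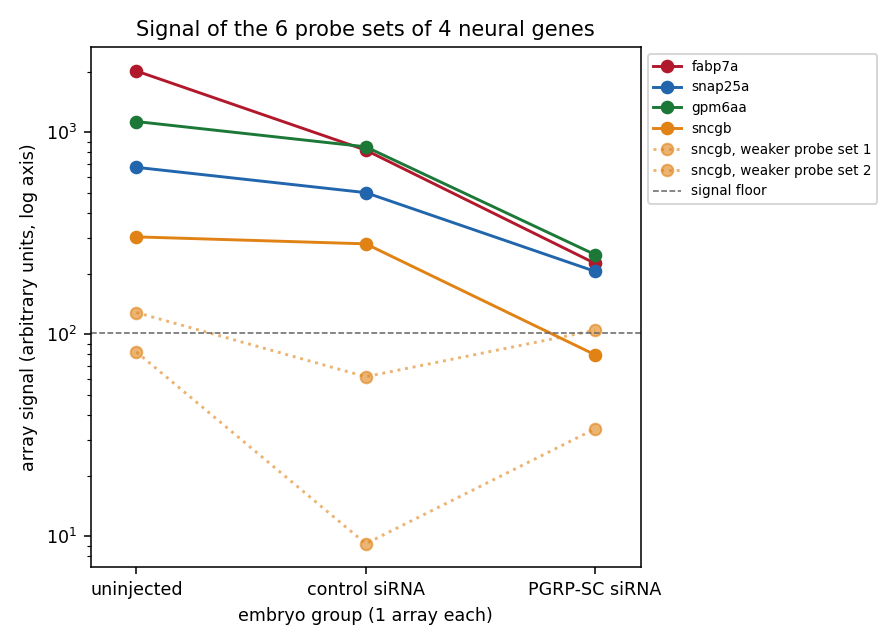
Signal on a log axis of each probe set of the 4 genes in the 3 arrays, with weaker sncgb probe sets dotted and the signal floor of 102 dashed. The brightest probe set of each gene is lowest with PGRP-SC siRNA. The dotted sncgb probe sets are lowest with control siRNA, but there both lie under the floor, where ratios are not read.

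The members also differed from each other. Counting by the brightest probe set, 4 of 4 were at least 2-fold lower with PGRP-SC siRNA than with control siRNA, where 2.93% of all 6514 genes were, and this is the contrast they were chosen on. Against uninjected embryos 4 of 4 were at least 2-fold lower, beside 6.09% of 6565 genes. The same low PGRP-SC siRNA signals enter that count, so it is not separate from the choice. Between the controls fabp7a alone was at least 2-fold lower, beside 0.774% of 6462 genes. In log2 units the difference between the controls was -1.30 for fabp7a, -0.42 for gpm6aa, -0.42 for snap25a and -0.11 for sncgb. The values of gpm6aa and snap25a lay beyond the range that held 68% of probe sets of like brightness between the controls, at 1.23-fold and 1.27-fold, but within the range that held 95%, and fabp7a lay beyond both. These comparisons share arrays, so a high or low control siRNA value moves 2 of them in opposite directions.

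Relatives of the members, which share their protein family but in several cases not their tissue, were on the array for 13 genes, and 8 of them lay above the floor in at least 1 array. Of those 8, 2 were at least 2-fold lower with PGRP-SC siRNA than with control siRNA and 0 were at least 2-fold higher, beside 2.93% and 2.87% of all genes. In the fatty acid binding protein family, fabp2, the intestinal form, had signals of 8647, 9872 and 16115 in uninjected, control siRNA and PGRP-SC siRNA embryos, a log2 ratio of 0.71 against control siRNA. The liver type gene fabp1b.1 went the same way, with 9582, 10538 and 15196. The muscle and heart type gene fabp3 had 13478, 14458 and 8568, a log2 ratio of -0.75. Neither direction reached 2-fold, and none of these 3 relatives showed the difference between the controls that fabp7a did, with log2 ratios there from 0.10 to 0.19. The further family genes fabp1a, fabp6 and fabp10a were under the floor in each array.

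Among SNAP proteins, snap23.1, the form that serves membrane fusion in many tissues, had signals of 296, 222 and 231, and its log2 ratio against control siRNA was 0.06. Another broadly used SNARE gene, snap29, had 283, 316 and 430, a log2 ratio of 0.44. The neuronal duplicate snap25b had 99.7, 75.6 and 43.0, under the floor in each array, so no ratio was taken.

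The M6 and proteolipid family contained a second gene at least 2-fold lower. This was gpm6bb, a neural M6B gene, with signals of 508, 333 and 109 and a log2 ratio of -1.61 against control siRNA and -2.22 against uninjected embryos. The direct duplicate of gpm6aa, gpm6ab, had 943, 791 and 648, a log2 ratio of -0.29. The duplicates therefore differed, at -1.77 for gpm6aa and -0.29 for gpm6ab, and gpm6ba was under the floor in each array. Among synucleins, sncb, which encodes beta-synuclein, had 1687, 1470 and 717 at its brighter probe set, a log2 ratio of -1.04. Its dimmer probe set had 598, 355 and 231, a log2 ratio of -0.62, so the 2-fold call for sncb holds at 1 of 2 probe sets while the order of the arrays is the same at both.

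**Figure D2:**
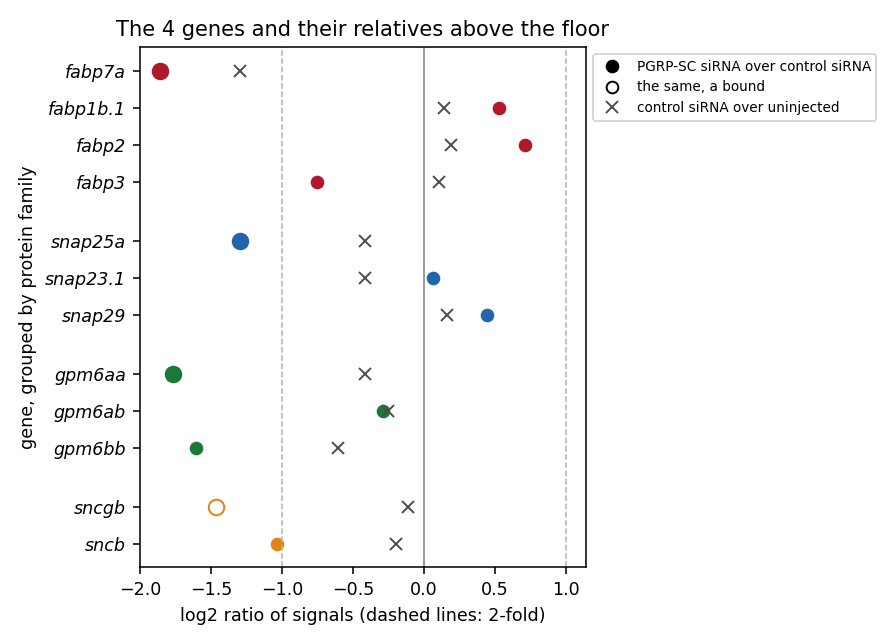
Log2 ratios of the 4 genes and of the 8 relatives above the floor, with circles for PGRP-SC siRNA over control siRNA, an open circle for a bound, and crosses for control siRNA over uninjected. The circles of gpm6bb and sncb lie beyond 2-fold on the low side with the 4 genes. Those of fabp2, fabp1b.1, snap29 and, at 0.06, snap23.1 lie above 0.

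To place the members among neural genes, 6 lists were set up by role, and each is described without the 4 members. A gene's value came from its brightest probe set. On the synaptic vesicle and SNARE list, 17 genes were on the array and 11 gave a ratio between PGRP-SC siRNA and control siRNA. The vesicle glycoprotein gene sv2bb, sncb and the SNARE recycling ATPase gene nsfa were at least 2-fold lower, which is 3 of 11. On this list 0 were at least 2-fold higher. Over all genes 2.93% were at least 2-fold lower and 2.87% at least 2-fold higher. At these brightest probe sets the log2 ratio was below 0 for 11 of 11, as it was for 50.3% of all genes. The list median was -0.74 beside -0.00256 over all genes. For 6 of the 11, nsfa and sypb among them, the PGRP-SC siRNA signal lay under the floor. Those ratios are bounds, and such genes could only come out lower. Another sypb probe set, above the floor in each array with 114, 105 and 114, was at 0.11 against control siRNA. Other probe sets of sncb and syt11a were at -0.62 and -0.42.

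The gene sv2bb had signals of 509, 511 and 235 in uninjected, control siRNA and PGRP-SC siRNA embryos, a log2 ratio of -1.12 against control siRNA. Synaptophysin gene sypa, another vesicle membrane protein, had 330, 250 and 147, a log2 ratio of -0.76. The acetylcholine loading transporter gene slc18a3a had 226, 186 and 184, a log2 ratio of -0.02. Apart from snap25a, at -1.30, the vesicle genes above the floor in each array thus ranged from -1.12 to -0.02. The calcium sensor gene syt1a, with 355, 176 and 67.2, was the single gene of the 6 lists that was at least 2-fold lower with control siRNA than without injection.

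The neuronal cytoskeleton and axon growth list, to which gpm6aa belongs, had 23 genes with a ratio. Of these, 6 were at least 2-fold lower with PGRP-SC siRNA than with control siRNA and 1 was at least 2-fold higher. Over all genes these shares were 2.93% and 2.87%. In all 21 of the 23 were below 0, beside 50.3% of all genes, and the median was -0.75. Bounds made up 5 of the 23 ratios. Those of stmn4, inab, map1aa and kif5aa, under the floor with PGRP-SC siRNA alone, could only come out lower. The growth cone gene dpysl5a had signals of 901, 834 and 310, a log2 ratio of -1.43. The neuronal beta-tubulin gene tubb5 had 2401, 1882 and 800, a log2 ratio of -1.23, and -0.91 at its other probe set. The microtubule regulator gene stmn1b had 740, 678 and 288, a log2 ratio of -1.23, and -1.04 at its other probe set. Also at least 2-fold lower, and named here after their values were seen, were tubb2, stmn2a and rtn1b, at -1.20, -1.18 and -1.05.

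Other genes of that list varied. Some came near 2-fold lower, such as dpysl3 and tuba2 at -0.90 and -0.84, also named after their values were seen. Others differed little. The tubulin gene tubb2b had 13589, 13056 and 11253, and the reticulon gene rtn1a, the highest of those above the floor in each array, had 3462, 4093 and 4581, a log2 ratio of 0.16. The growth associated gene gap43 lay between, with 902, 784 and 467 and a log2 ratio of -0.75. The gene counted as higher was inaa, an intermediate filament gene under the floor in both controls at 86.4 and 30.0, which had 254 with PGRP-SC siRNA and was at least 2.50-fold higher.

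On the list of neuronal adhesion, RNA binding and excitability genes, 21 gave a ratio. The splicing factor gene rbfox1 alone was at least 2-fold lower, as a bound, and 0 genes were at least 2-fold higher. Over all genes these shares were 2.93% and 2.87%. In all 16 of the 21 were below 0, beside 50.3% of all genes, and the median was -0.30. Bounds made up 5 of the 21 ratios. Those of rbfox1, cadm2a, cadm4 and atp1a3b, under the floor with PGRP-SC siRNA, could only come out lower. The G protein subunit gene gng3 had 410, 319 and 163, a log2 ratio of -0.97, and the adhesion gene cadm3 had 376, 287 and 153, a log2 ratio of -0.91. The calcium buffers encoded by calb2b and calb2a differed, at -0.77 and 0.10. The RNA binding protein gene elavl3, a general marker of new neurons, had 1515, 938 and 863. Its log2 ratio at this brightest probe set was -0.12 against control siRNA and -0.69 between the controls. The next brightest, with 295, 328 and 229, was lower against control siRNA too, at -0.52, but was at 0.15 between the controls. Another had 190, 133 and 151, at 0.18 and -0.52. The remaining one had 176, 86.1 and 97.8, under the floor in both injected arrays, with a bound of -0.79 between the controls. The probe sets of elavl3 thus disagree on where the difference lay, and only the next brightest was above 0 between the controls.

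The radial glia and neural progenitor list, to which fabp7a belongs, had 39 genes with a ratio. With PGRP-SC siRNA 2 were at least 2-fold lower than with control siRNA, the matrix gene tncb and the Notch target gene her4.2. Both are bounds, and the other her4.2 probe set, which was above the floor throughout, gave -0.62. The Notch related repressor gene her6 was at least 2-fold higher, with 1769, 2139 and 4372 and a log2 ratio of 1.03. The lower and higher counts are 5.13% and 2.56% of the 39 genes, beside 2.93% and 2.87% of all genes. In all 25 of 39 were below 0, beside 50.3% of all genes, and the median was -0.23.

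The other genes of this list given here differed less than fabp7a, which was itself chosen for its low signal with PGRP-SC siRNA. Of these, slc1a2b, gja1b and id4 are named as the 3 lowest above the floor in each array. The glial filament gene gfap had 1066, 1112 and 750, a log2 ratio of -0.57. The glutamate transporter gene slc1a2b had 841, 547 and 274, a log2 ratio of -0.99. The gap junction gene gja1b had 729, 823 and 438, a log2 ratio of -0.91, and the inhibitor gene id4 had 221, 238 and 130, a log2 ratio of -0.88. The intermediate filament gene vim was at -0.38, and the glutamine synthetase genes glulb and glula were at -0.13 and 0.29. Another glutamate transporter gene, slc1a3a, was at -0.33 and sox9b at 0.46, both also named after their values were seen. Between the controls the median of this list was 0.11 and 14 of 40 genes were below 0, beside 0.0155 and 47.7% over all genes. The lowest of the list, msi2b, was at -0.90, beside -1.30 for fabp7a.

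Among proneural and early neuron transcription factors, 40 genes gave a ratio between PGRP-SC siRNA and control siRNA. Of these, 1 was at least 2-fold lower and 2 were at least 2-fold higher. These are 2.5% and 5% of the 40, beside 2.93% and 2.87% of all genes. In all 29 of the 40 were below 0, beside 50.3% of all genes, with a median of -0.23. Bounds made up 3 of the 40 ratios. Those of tbr1b, nkx2.2a and prox1a, under the floor with PGRP-SC siRNA, could only come out lower. The POU factor gene pou3f3b had 441, 482 and 216, a log2 ratio of -1.16. The differentiation factor genes myt1a and neurod1 were at -0.96 and -0.95. The proneural gene neurog1 had 772, 831 and 814, a log2 ratio of -0.03, whereas the proneural genes ascl1a and ascl1b were at -0.62 and -0.46. The Notch ligand genes differed likewise, with dld at -0.12, dla at -0.23 and dlb at -0.85, or -0.55 at its other probe set. The ligand genes jag1a, jag2b and dlc were at 0.10, 0.15 and 0.24, with dlc at -0.00186 at another probe set. The 2 genes counted as higher were gata2a, with 134, 210 and 694, and gata3, with 291, 333 and 724, at 1.72 and 1.12. Both act in spinal interneurons and also in blood and epidermis. The oligodendrocyte and Schwann cell list had 5 genes with a ratio, 0 of them 2-fold apart, with a median of 0.05 and sox10 at 0.14.

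**Figure D3:**
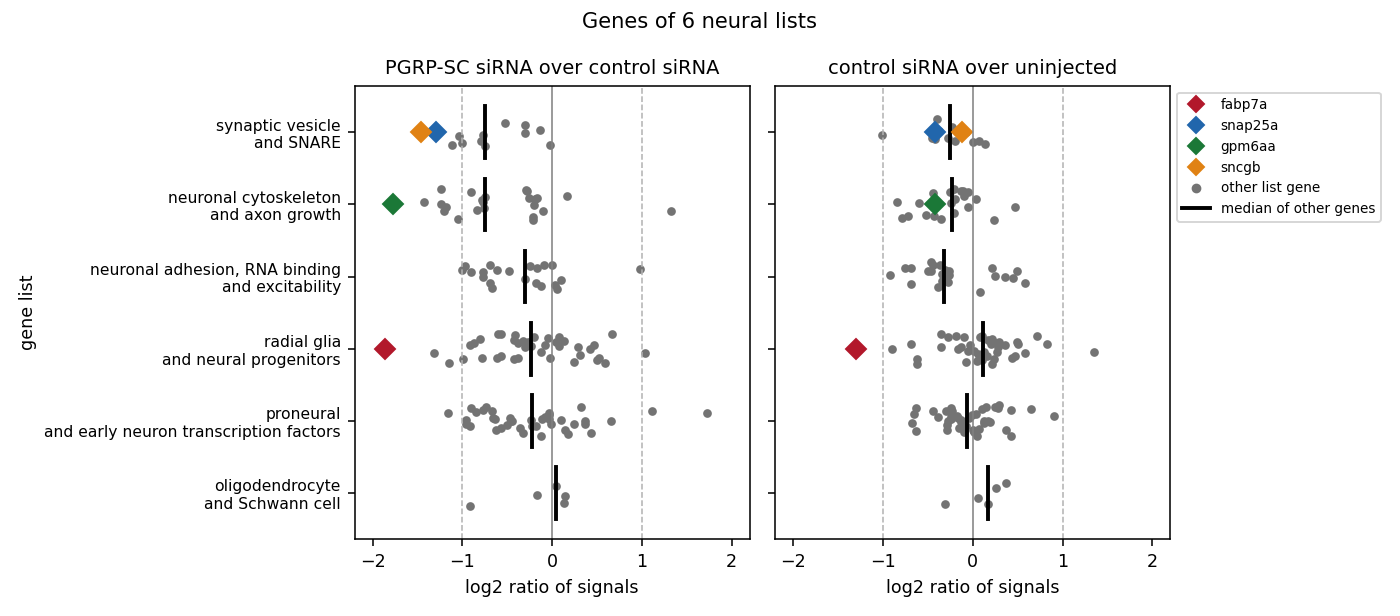
Log2 ratios of the genes of the 6 neural lists for PGRP-SC siRNA over control siRNA and for control siRNA over uninjected, with grey points for other genes, a black bar for their median and diamonds for the 4 members. The medians of the synaptic and cytoskeletal lists stand at -0.74 and -0.75 in the first panel, and fabp7a is the diamond at -1.30 in the second.

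Over the 6 lists together, 138 genes besides the members gave a ratio between PGRP-SC siRNA and control siRNA. Of these, 13 were at least 2-fold lower, or 9.42%, beside 2.93% of all genes, and 4 were at least 2-fold higher, or 2.90%, beside 2.87%. With median scaling 9 were lower and 5 higher, or 6.57% and 3.65%, beside 2.44% and 3.53% of all genes under that scaling. The median log2 ratio was -0.29. Against uninjected embryos 33 of 145 were at least 2-fold lower, or 22.8%, beside 6.09% of all genes, and 7 were at least 2-fold higher, beside 5.76%, with a median of -0.37. Between the controls 1 of 146 was at least 2-fold lower and 1, the progenitor gene sox19a, at least 2-fold higher, beside 0.774% and 1.11% of all genes, with a median of -0.10. The lists were drawn up with results of these arrays known. Bounds made up 22 of the 138 ratios against control siRNA and 29 of the 145 against uninjected embryos. A gene under the floor with PGRP-SC siRNA alone could only come out lower there. Against control siRNA the synaptic and cytoskeletal lists held 3 and 6 of the 13 lower genes. Against uninjected embryos those at least 2-fold lower were 4 of 12 on the synaptic, 9 of 23 on the cytoskeletal, 8 of 23 on the adhesion, 4 of 40 on the radial glia and 8 of 43 on the proneural list.

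Other tissues differed between the same arrays. In the sums below, signals under the floor count at the floor. The summed signal of 26 skeletal muscle genes was 73.2% of the uninjected level after control injection and 41.5% with PGRP-SC siRNA. Of the 26, 11 were at least 2-fold lower than with control siRNA, beside 2.93% of all genes. The summed signal of 14 tail bud and unsegmented mesoderm genes was 188% and 573%. Of the 14, 7 were at least 2-fold higher than with control siRNA, beside 2.87% of all genes. In the uninjected array 6 of the 14 were at the floor. Primitive erythrocyte genes summed to 67.5% and 49.7%, and epidermis and periderm genes to 99.1% and 95.7%. For the synaptic list the sums were 84.8% and 49.8%, and 7 of its 12 genes were at the floor with PGRP-SC siRNA, having entered the sum through the controls. For the radial glia and progenitor list without fabp7a the sums were 112% and 105%, while its median log2 ratio against control siRNA was -0.23. The array's own probes for muscle actin had a ratio of 5′ to 3′ signal of 0.369, 0.205 and 0.127 in uninjected, control siRNA and PGRP-SC siRNA embryos, and those for GAPDH had 0.350, 0.347 and 0.498. The part of these differences in the values of the 4 genes was not tested.

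**Figure D4:**
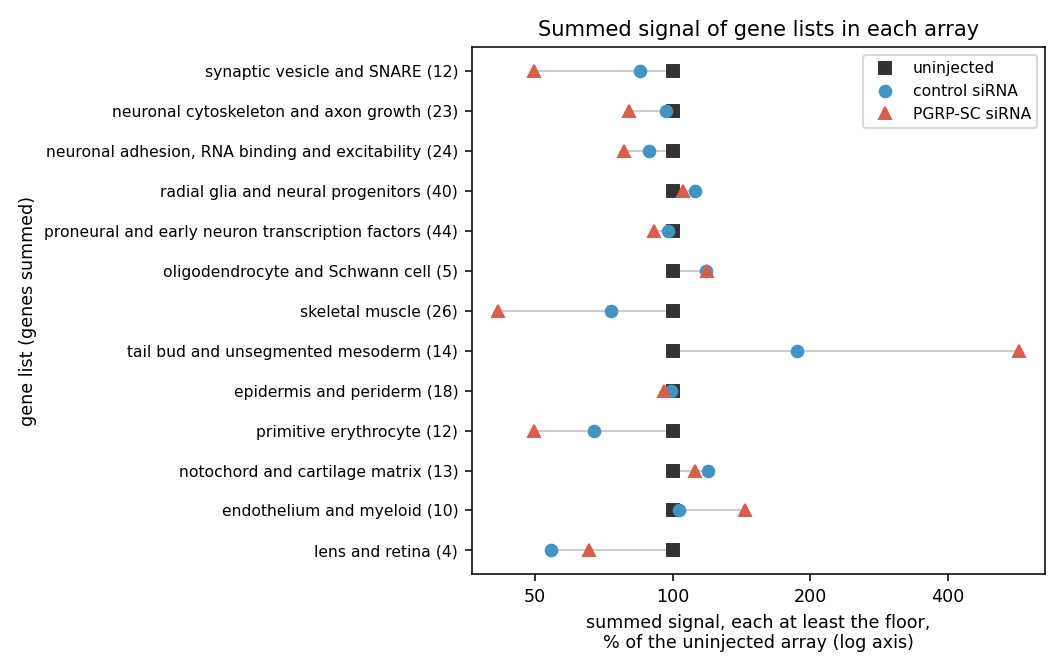
Summed signal of each gene list, without the 4 members and with signals at least at the floor, as a percentage of the uninjected array on a log axis, with the number of genes summed in brackets. The PGRP-SC siRNA triangle stands at 41.5% for skeletal muscle, 573% for tail bud genes and 49.8% for synaptic genes, of which 7 of 12 are at the floor in that array.

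The genes most like each member were found by the distance between their log2 ratios of both injected arrays over the uninjected one, a measure that rests on 3 arrays. Candidates were the 6340 probe sets of a single named gene above the floor in each array, with systematic names and the members left out. For snap25a the nearest of 6340 probe sets were nae1, which encodes a subunit of the NEDD8 activating enzyme, cplx2a, which encodes the SNARE binding protein complexin, and lyrm9, at distances of 0.02, 0.07 and 0.07. The synaptic list held complexins under other symbols, and cplx2a was not counted there. Its signals were 937, 723 and 296. The nearest to gpm6aa were the catenin gene arvcfb, tmx2a and the water channel gene aqp1a.1, at 0.16, 0.17 and 0.19. For snap25a 36 probe sets lay within 0.25, and for gpm6aa 6 did.

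The pattern of fabp7a had fewer neighbours, with 0 of 6340 probe sets within 0.25. Its ratios lay near the low end of all genes, where few genes lie, so this count restates that position. The nearest were the thymosin gene tmsb, the keratin gene krt1-19e and the muscle thin filament gene neb, at 0.30, 0.31 and 0.55. A muscle and a keratin gene were thus among those nearest to fabp7a, and with 2 ratios per gene such closeness is a description. For sncgb no neighbours are given, since its PGRP-SC siRNA signal lay under the floor and a distance would compare the controls alone.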

How the data were processed

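For each of 3 single-colour Affymetrix arrays the authors deposited a linear intensity for every probe set. These came from GCOS 1.4, per the submitters' processing notes; for its background settings and a genome build, nothing is given in the sources used here. The deposited intensity values had equal 2% trimmed means of 500 per array, so a difference in total RNA cannot be seen. Of 15617 probe sets, 115 array controls were set aside, leaving 15502. Of these, 10795 had 1 gene in the platform annotation, 135 several and 4572 none, and symbols were updated through gene IDs with the RefSeq gene table of assembly GRCz12tu. Of 469 list symbols, 3 were in neither table.

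Signals were scaled to a common 2% trimmed mean, set to at least the 40th percentile (102), and compared as log2 ratios in Python 3.11.15 with numpy 2.4.6, pandas 2.3.3 and scipy 1.17.1. Where 1 of the 2 signals was below the floor the ratio is a bound, and where both were, none was taken. For a gene with several probe sets, the brightest on average was used. Genes were counted at 2-fold. The counting steps were tested on simulated data in which only probe sets far above the floor were changed, so calls near the floor were not tested. Genes were named by rule: all probe sets of the members, relatives above the floor, the 3 lowest and 1 highest gene above the floor in each array from each neural list, and the 3 nearest genes by pattern (not reported for sncgb, under the floor in 1 array), with systematic names skipped. Further genes, such as tubb2, stmn2a, rtn1b, gap43, tubb2b, elavl3, gfap, vim, glula, glulb, neurog1, ascl1a, ascl1b, dld, dlb and those that complete a count, were added after their values were seen. The members and lists were chosen with earlier results of these data known. Alternatives were other scalings (cyclic loess in limma 3.58.1), floors, a pseudocount of 50, probe set means and a 1.5-fold threshold.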

Additional observations from a re-analysis of the deposited data

How the results depend on the processing

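The log2 ratios of fabp7a and gpm6aa moved by less than 0.34, the spread between the controls taken from the middle 68% of genes, under each of 8 alternatives. A floor at percentile 60 lay above both PGRP-SC siRNA signals, so their ratios there, -1.60 and -1.65 against control siRNA, are bounds. For snap25a a floor at percentile 60, or 269, lay above its PGRP-SC siRNA signal and left bounds, -0.90 against control siRNA (at least 1.87-fold lower), too low for the 2-fold call, and -1.32 against uninjected. For sncgb the same 2 ratios were -1.82 and -1.94 without a floor and also at percentile 20, -0.0591 and -0.17 at percentile 60, and -0.71 and -0.94 as the mean over probe sets. The last 2 settings end its call.

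For the 6 neural lists together, the median against control siRNA was -0.23 with median scaling and -0.35 without a floor. With floors at percentiles 20 and 60 it was -0.37 and -0.23. Over all genes the medians in this order were 0.0640, -0.00664, -0.00558 and 0.00940. Lower genes of the 6 lists numbered 30 with no floor, 22 and 5 with those floors and 48 at 1.5-fold. These are 16.4%, 13.3%, 5.49% and 34.8%, beside 7.72%, 4.04%, 1.94% and 11.5% of all genes. Higher genes numbered 8 with no floor and 8 at 1.5-fold, or 4.37% and 5.80%, beside 7.36% and 10.7%. Against uninjected the median was -0.46 without a floor and also at percentile 20, -0.23 at percentile 60, -0.28 with a pseudocount, -0.41 with probe set means and -0.41 for genes with a mean signal above the floor, a choice made after seeing the data. Over all genes the medians in these settings ranged from 0.00650 to 0.0355. Lower genes of the 6 lists numbered 58 with no floor, 52 and 12 with those floors and 62 at 1.5-fold. These are 31.7%, 31.9%, 12% and 42.8%, beside 11.2%, 7.69%, 4.64% and 15.6% of all genes. Higher genes numbered 13 with no floor and 16 at 1.5-fold, or 7.10% and 11.0%, beside 9.87% and 16.2%. Between the controls the median was -0.13, -0.13 and -0.14 with median scaling, quantile normalization and cyclic loess. With the 2 floors it was -0.13 and -0.0343. Over all genes the medians in this order were -0.00937, 0, -0.00850, 0.00876 and 0.0172. Lower genes of the 6 lists there numbered 6 with no floor, 3 and 0 with those floors, 0 with a pseudocount and 17 at 1.5-fold. These are 3.28%, 1.83%, 0%, 0% and 11.6%, beside 5.22%, 1.55%, 0.489%, 0.557% and 5.08% of all genes. Higher genes numbered 7 with no floor and 5 at 1.5-fold, or 3.83% and 3.42%, beside 5.23% and 6.47%. The proneural median between the controls turned to 0.0042 at percentile 60. A higher floor leaves fewer genes; other causes were not tested. No paired analysis was possible because each group had 1 array, and for the same reason no array could be left out.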

Other observations

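Some genes of the 6 neural lists were above the signal floor in the uninjected array alone and so gave no ratio between the injected groups. These were 9 of the 147 genes above the floor in any array, or 6.12%, beside 153 of 6667 genes, or 2.29%, over the whole array. They were the neurexin gene nrxn1a, the secretory granule genes chga and scg5, the GABA synthesis gene gad1b, the RNA binding protein gene msi2a and the transcription factor genes atoh1a, neurod6b, ptf1a and vsx1. The signal of nrxn1a was 172 in uninjected, 88.4 in control siRNA and 13.4 in PGRP-SC siRNA embryos, and that of chga was 143, 88.4 and 34.3. In the PGRP-SC siRNA array alone 1 of the 147, inaa, was above the floor, beside 205 of 6667 genes or 3.07%. Signals this near the floor of 102 are weakly measured, and the genes were named after their values were seen.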
